A study of Mus musculus with 27 samples.

Results

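Of the lamin B1 regions mapped in NMuMG cells, those found at every time point of a TGF-β time course are described here. NMuMG is an immortalised line from normal mouse mammary gland, and TGF-β drives it through an epithelial-to-mesenchymal transition (EMT). Lamin B1 was mapped by ChIP-seq with an antibody from Abcam in untreated cells (0 h) and in cells given TGF-β for 8 h or for 24 h, 1 library each. The peaks of the 3 lists were merged where they touched or overlapped, which gave 13306 merged regions, and 2431 of these (18.3%) were overlapped by at least 1 bp of a peak of each list and are the members. ATAC-seq, which marks accessible chromatin, was done at the same times with 1 library each, and RNA-seq gave 2 libraries per time for parental cells (6 libraries). RNA-seq also gave 2 libraries per time for cells infected with lentivirus carrying an irrelevant shRNA (control) or an shRNA against lamin B1 (KD), both selected with puromycin (12 libraries). All cells grew in medium with serum and insulin, and the labels give TGF-β as 1 to 5 ng/ml. The series has 27 samples, and its 3 Hi-C samples were not analysed here.

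Lamin B1 is a filament protein that forms the meshwork under the inner nuclear membrane, and it is best known for its contact with silent heterochromatin in large lamina-associated domains. Part of it lies in the nuclear interior, where it can be found with active chromatin. The chromatin here was sheared by mild sonication, which favours open chromatin and leaves compact chromatin in fragments too long to be sequenced, so the method was aimed at euchromatic sites and not at the classical domains. During EMT, cells lose junctions such as those built on E-cadherin and gain migratory and matrix genes.

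The members were chosen by the positions of the lamin B1 peaks themselves, so the number, scores and widths of the members are a description with no test. The ChIPs done side by side went into a common library at each time, which leaves no error between replicates for any ChIP or ATAC value. Shares are given with 95% Wilson intervals, which cover counting error only. The lists hold no reads, so the depth behind a peak is unknown. Lmnb1 RNA in the KD libraries, which checks the labels, was 9.01 and 9.27 FPKM (fragments scaled to transcript length and library size) at 0 h against 29.2 and 36.5 FPKM in control cells, 7.79 and 8.14 against 32.8 and 32.1 at 8 h, and 4.37 and 7.52 against 18.4 and 17.9 at 24 h. The groups did not overlap at any time. Of 8 mammary epithelial markers, 6 reached 1 FPKM in at least 1 parental library and their sum was 3866 to 4746 FPKM, with Cldn3 and Cldn7 under 0.1 FPKM throughout. The sum of 5 fibroblast markers was 5.20 to 12.8 FPKM, and 3 of them reached 1 FPKM in at least 1 parental library. Under 0.1 FPKM in every parental library were 3 of 4 blood cell markers and 2 of 3 adipocyte markers. The remaining ones, Cd68 and Fabp4, reached 1.93 and 5.87 FPKM. The 10 highest genes took 25 to 34.1% of summed FPKM in the parental libraries and 11.4 to 40.4% in the shRNA libraries, and the part of this spread in the results was not tested. In bulk RNA, fewer cells of a type and less RNA per cell cannot be told apart.

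The members lay over CpG-rich promoters, and the bases in front of the start sites of the regions with the strongest peaks show the base composition they shared. The first 4 sequences are the 200 bases upstream of the transcription start site (TSS) of the gene with a member region, read 5′ to 3′ on the strand of the gene from the mm9 genome, and the last is the middle of a member outside any annotated gene, read on the plus strand. They are Prdm15 (chr16:98073458-98073657, minus strand), 4632411B12Rik (chr1:36426027-36426226, minus strand), Gm962 (chr19:5567874-5568073, plus strand), Mnt (chr11:74644222-74644421, plus strand) and chr1:88384152-88384351. Capitals mark the GC box GGGCGG, the ETS site CCGGAAG, the E2-box CACCTG and the E-box CACGTG, searched on both strands, so that a GC box on the other strand reads CCGCCC and an E2-box CAGGTG.
Prdm15: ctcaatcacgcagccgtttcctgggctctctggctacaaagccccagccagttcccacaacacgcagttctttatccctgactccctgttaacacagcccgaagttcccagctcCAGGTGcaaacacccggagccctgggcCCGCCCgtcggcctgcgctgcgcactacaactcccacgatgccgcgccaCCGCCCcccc
4632411B12Rik: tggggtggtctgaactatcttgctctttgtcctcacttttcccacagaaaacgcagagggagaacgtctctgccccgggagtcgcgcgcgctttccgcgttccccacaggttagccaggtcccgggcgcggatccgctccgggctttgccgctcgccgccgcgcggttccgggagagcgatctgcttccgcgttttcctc
Gm962: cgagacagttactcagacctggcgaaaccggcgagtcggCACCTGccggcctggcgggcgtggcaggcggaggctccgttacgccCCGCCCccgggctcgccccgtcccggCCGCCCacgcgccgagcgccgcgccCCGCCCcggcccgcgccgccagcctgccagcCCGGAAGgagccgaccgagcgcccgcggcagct
Mnt: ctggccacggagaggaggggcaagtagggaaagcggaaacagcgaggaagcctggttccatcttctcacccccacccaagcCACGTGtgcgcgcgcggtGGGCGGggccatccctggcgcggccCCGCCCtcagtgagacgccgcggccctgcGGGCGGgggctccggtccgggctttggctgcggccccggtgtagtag
Intergenic region on chromosome 1: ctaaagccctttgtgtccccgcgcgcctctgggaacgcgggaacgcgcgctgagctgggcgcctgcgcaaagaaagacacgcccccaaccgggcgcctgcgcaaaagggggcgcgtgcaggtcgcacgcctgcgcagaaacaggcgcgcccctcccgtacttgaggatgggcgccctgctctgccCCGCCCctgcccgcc

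The printed sequences held between 64.5 and 80.5% G and C. Gm962 and Mnt had 3 GC boxes each, Prdm15 had 2, the intergenic sequence had 1, and 4632411B12Rik had none of the motifs in capitals. In the 500 bp in the middle of the members, at least 1 GC box was present in 86.0% of the 2431 members (84.6 to 87.3), against 52.6% of 22375 windows of the same length centred on protein-coding TSSs (51.9 to 53.2). CCAAT, the NF-Y motif, showed the opposite order with 23.5% of members and 48.1% of TSS windows, as did the TATA box TATAAA with 2.67% and 16.7%, the AP-1 site TGACTCA with 2.67% and 6.15% and the TEAD site GGAATG with 10.1% and 20.6%. The ETS site (14.2% and 14.4%), the E-box (11.4% and 10.4%) and the E2-box of Zeb and Snail factors (34.7% and 33.6%) were at similar shares in both. All motifs were searched on both strands, and a match is a run of letters, not a bound site. The windows differ in base content and in place, since member windows lie mostly downstream of the TSS, and their part in these shares was not tested. In the 500 bp upstream of the TSSs of the 2211 protein-coding genes with a member, 75.6% held a GC box, against 44.0% upstream of all 22370 protein-coding TSSs, and 45.7% against 53.5% held CCAAT.

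Promoter position was the main feature of the members. Of the 2431, 82.6% (81.0 to 84.1) lay within 500 bp of an annotated TSS, and 2444 genes had a member within that distance of their TSS, among them 2211 protein-coding genes, 112 lincRNAs and 14 miRNA genes. The stretch common to the lists was not centred on the TSS: in 2025 members near a protein-coding TSS its centre lay a median of 235 bp into the gene (quartiles 100 and 427 bp), and 85.9% of the centres (84.3 to 87.3) were downstream. The middle 500 bp had a median of 71.4% G and C and a median CpG observed over expected of 0.906, against 57.2% and 0.588 over all protein-coding TSSs. By the usual definition of a CpG island, over 50% G and C and a ratio over 0.6, 95.4% of the members and 47.5% of all protein-coding TSS windows were CpG-rich. Head-to-head promoters, with a pair of protein-coding TSSs less than 1000 bp apart on opposite strands, held 13% (11.6 to 14.4) of the protein-coding genes with a member and 7.15% (6.82 to 7.50) of all 22380. A single protein-coding TSS lay in 1707 members, 242 held 2 and 8 held 3.

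**Figure D1:**
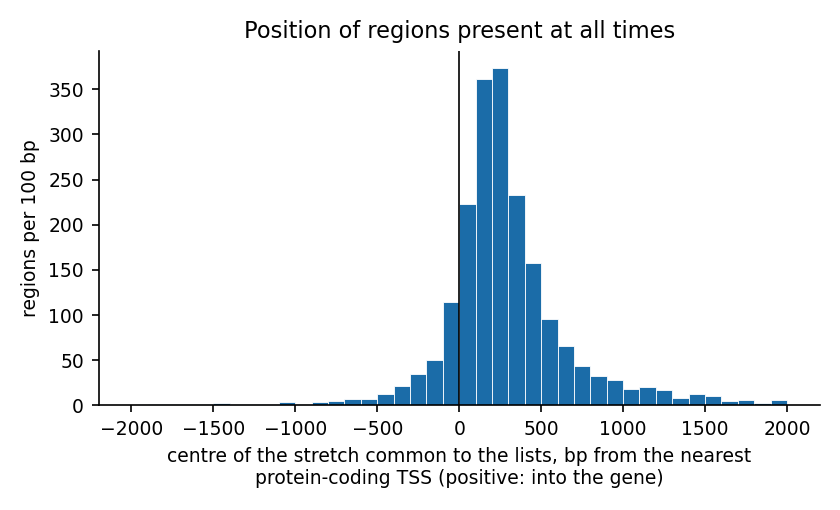
Number of members per 100 bp by the distance in bp from the nearest protein-coding TSS to the centre of the stretch covered by all lists, with positive values inside the gene. The bars lean to the right of 0, with the median at 235 bp and 85.9% of 2025 centres downstream.

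Not all members were promoters. In all, 319 were more than 2500 bp from any TSS, and of these 168 had their centre in an exon, 81 in an intron and 70 outside genes. A GC box was in the middle of 74.0% of these (68.9 to 78.5). The widest member, chr15:76001626-76014936, covered 13311 bp in the body of Plec, the gene of the cytoskeletal linker plectin, and 85.3% of it was exonic. A separate member stood at the Plec TSS. Next in width were 2 neighbours on the X chromosome in Mid1, chrX:166415723-166426071 with 10349 bp and chrX:166426128-166436441 with 10314 bp, then chr13:120276043-120283717 with 7675 bp and chr19:5048378-5055359 with 6982 bp over Rin1 and Brms1. Widths ran from 775 bp to 13311 bp with a median of 1533 bp.

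The members took up more of the untreated list than of the later ones. They held 53.2% of 4645 peaks at 0 h, 24.1% of 10484 at 8 h and 35.5% of 7083 at 24 h. Among the 500 highest peaks of each list the shares were nearly level, at 84.8, 86.4 and 84.0%. The highest MACS score in a member, a measure of peak strength from the authors' peak caller that starts at 50 in the lists, had a median of 79.8 at 0 h, 128 at 8 h and 113 at 24 h. The medians over the whole lists were 69.8, 79.4 and 83.3, and scores of different libraries are not on a common scale of reads. By time, 1284 members had their best score at 8 h, 933 at 24 h and 214 at 0 h. A rise at each step was seen in 741 and a fall at each step in 128.

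**Figure D2:**
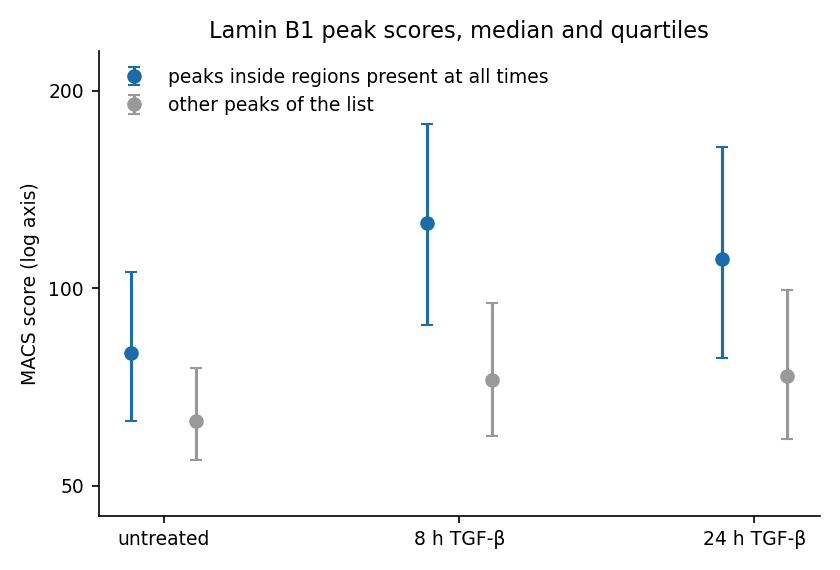
Median (points) and quartiles (bars) of the MACS score, on a log axis, of lamin B1 peaks inside members and of the other peaks of each list, by time. Peaks inside members had medians of 79.6, 126 and 110.8, and the other peaks 62.7, 72.5 and 73.5.

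Inside the members, the median number of bases covered by peaks was largest at 0 h. In a member, peaks covered a median of 1307 bp at 0 h, 1270 bp at 8 h and 1088 bp at 24 h. More bases were covered at 0 h than at 24 h in 1869 members. The bases covered at all times had a median of 923 bp, or 63.5% of the region, and 2260 members had exactly 1 peak of each list. In 8 members no base was covered by all lists. The weakest link, 38 bp between peaks of 0 and 8 h, was in chr15:85482678-85484808, 70.4 kb from Wnt7b (scores 61.6, 65.2 and 102). Links of 227 bp at Ccne2, a cyclin of S phase entry (chr4:11117301-11119676), and of 252 bp in Rusc1 (chr3:88892790-88895561) came next. Just outside the rule were 3 regions with peaks of a pair of lists and a gap of a few bases to the third: 2 bp over Ntn1 (chr11:68199175-68200929), 7 bp over Vars (chr17:35153073-35154263) and 19 bp over Tsta3 (chr15:75755828-75757152).

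The strongest members, ranked by their lowest score over the 3 lists, were a mixed set. The first, chr17:39979512-39986251, covered the pseudogene AY036118 and had scores of 2215, 3100 and 3100 at 0, 8 and 24 h, the highest of each list. How reads that map to several places were treated is not given in the sources used here, which limits this region and others in repeats. Prdm15, a zinc finger transcription factor, followed (chr16:98072312-98073980) with 640, 1058 and 1472. The promoter of 4632411B12Rik, listed as Kansl3 in the RNA tables and a subunit of the NSL histone acetyltransferase complex (chr1:36425130-36426641), had 490, 594 and 764. An exonic region of the zinc finger gene Zfp316 (chr5:144013652-144017597) had 484, 1295 and 2064 and overlapped no ATAC peak at any time.

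Also among the first 10 were Gm962, or Ap5b1, a subunit of the AP-5 adaptor complex (chr19:5565638-5571525, scores 477, 676 and 640), the intergenic chr1:88383419-88384992 (580, 709 and 399), chrX:166426128-166436441 in Mid1 (351, 938 and 1336), Mnt, a Max-binding repressor (chr11:74643037-74646056, 368, 649 and 332), and Ltbp3, a latent TGF-β binding protein (chr19:5741289-5746593, 374, 439 and 328). RNA from these promoters covered a wide range of levels. In parental cells Prdm15 stood at 3.37 and 3.38 FPKM (0 h), 3.51 and 3.405 (8 h) and 3.69 and 3.49 (24 h), a flat course in which no limma test passed. Kansl3 stood at 18.7 and 19.3 FPKM (0 h), 28.2 and 27.1 (8 h) and 27.6 and 27.5 (24 h), and both treated groups lay above the untreated one. Its log2 change was 0.52 ± 0.04 (SE) at 8 h and 0.51 ± 0.04 at 24 h, with limma adjusted p of 0.00012 and 4.0e-05. Ap5b1 stayed between 3.07 and 3.67 FPKM in the parental libraries. Ltbp3 rose from 51.6 and 52.2 FPKM to 82.3 and 78.8 after 24 h (0.62 ± 0.04, adjusted p = 1.4e-05), and Mnt from 6.34 and 6.99 to 9.52 and 9.51 (0.46 ± 0.06, adjusted p = 0.00037).

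ATAC-seq was not used to choose the members. An ATAC peak overlapped 63.7% of them before TGF-β (61.7 to 65.6), 51.7% after 8 h (49.8 to 53.7) and 85.3% after 24 h (83.9 to 86.7). The ATAC lists were of unequal length, with 9782, 10340 and 33811 peaks, and with each list cut to its 9782 highest peaks the shares were 63.7, 49.8 and 56.2%. With lists of equal length the share at 24 h was thus below that at 0 h, and the share at 8 h was the lowest in both counts. Open at all times were 1123 members (46.2%), and 342 (14.1%) overlapped no ATAC peak at any time. A further 410 (16.9%) had a peak at 0 and 24 h but not at 8 h, and 409 (16.8%) only at 24 h. None had an ATAC peak at 8 h alone, 0 of 2431, which allows a share of up to 0.123% when the limit is set at 3 counts (Wilson upper limit 0.158%). Members whose lowest score was between 93.5 and 2215 had an ATAC peak in 70.4, 60.9 and 88.0% at the 3 times, and those with a lowest score of 50 to 59.1 in 57.1, 45.1 and 80.6%.

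Compared with merged regions that missed at least 1 list, the members lay at promoters and ATAC peaks in larger shares. The 266 regions with peaks at 0 and 24 h but not at 8 h lay within 500 bp of a TSS in 74.4% (68.9 to 79.3) and overlapped an ATAC peak in 53.4, 43.6 and 77.8% at the 3 times. The 2574 regions with peaks at 8 and 24 h but not at 0 h lay within 500 bp of a TSS in 73.3% (71.6 to 75) and overlapped an ATAC peak in 40.2, 33.3 and 59.8%. Regions with a peak in 1 list alone were near a TSS in 34.0% (0 h), 41.3% (8 h) and 51.9% (24 h). Wide regions reach a TSS or an ATAC peak more readily, so the comparison was repeated on the central 500 bp of each region, a choice made after seeing the data. The members were then near a TSS in 75.5% (73.7 to 77.2) against 69.2% (67.3 to 70.9) of the 8 and 24 h class and 69.5% (63.8 to 74.8) of the 266 regions of 0 and 24 h. They were open in 60.1, 47.6 and 84.0% against 51.1, 40.2 and 75.9% in the 0 and 24 h class and 38.8, 31.8 and 58.9% in the 8 and 24 h class. The TSS interval of the members did not overlap that of the 8 and 24 h class and overlapped that of the 0 and 24 h class, and no test between classes was made because the lists come from 1 library each. A GC box was in the middle of 80.4% of the 8 and 24 h class (78.8 to 81.9).

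**Figure D3:**
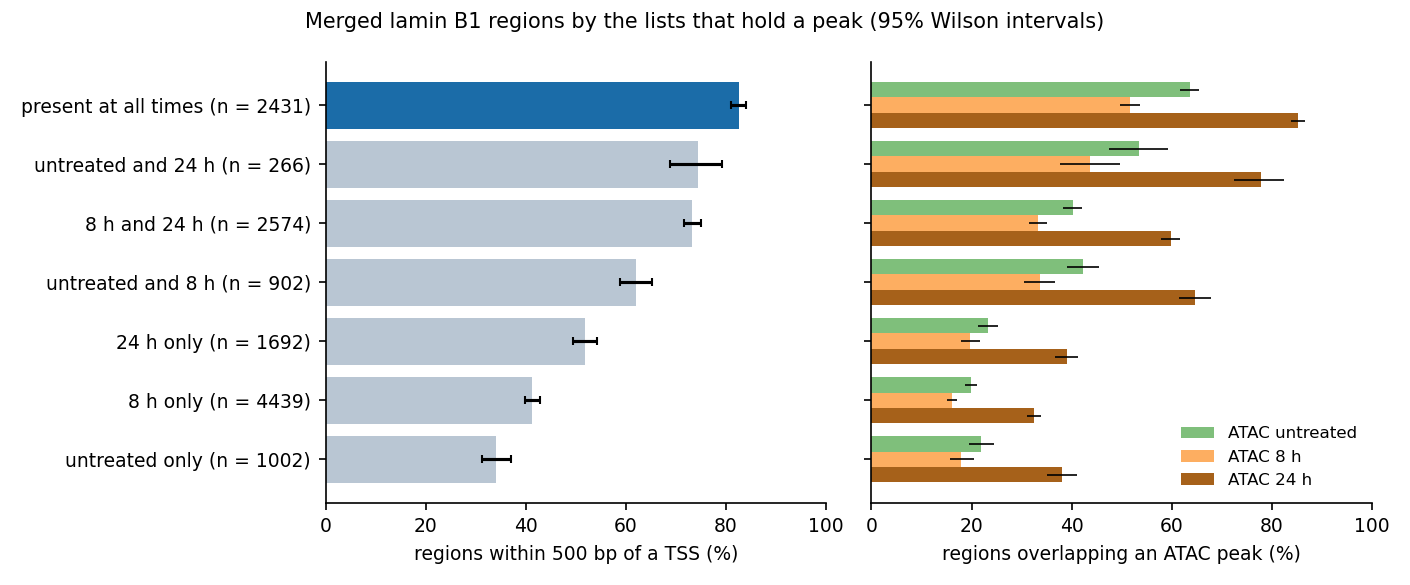
Share of merged regions within 500 bp of a TSS (left, %) and overlapping an ATAC peak of untreated, 8 h or 24 h cells (right, %), by which lamin B1 lists hold a peak, with 95% Wilson intervals. The members stand at 82.6% on the left and at 63.7, 51.7 and 85.3% on the right, the highest bar of each kind.

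The members were spread unevenly over chromosomes. Among protein-coding genes with at least 1 FPKM in untreated parental cells, 42.8% on chromosome 19 (38 to 47.7, 169 of 395 genes) and 36.7% on chromosome 15 (32.2 to 41.3, 158 of 431) had a member at the TSS. On chromosome 14 the share was 3.38% (1.94 to 5.81, 12 of 355), and it was 4.37% on chromosome 18, 5.00% on X, 5.57% on chromosome 4 and 7.42% on chromosome 12. The other chromosomes lay between 13.7 and 24.5%. ATAC peaks at the same TSSs did not show this order at 24 h, with 81.7 to 89.1% over all chromosomes, 84.8% on chromosome 19 and 83.1% on chromosome 14. At 0 h they did so in part, with 65.6% on chromosome 19, 66.1% on 15, 44.8% on 14 and 35.7% on X. The median level of the expressed genes was 22.3 FPKM on chromosome 19 and 20.9 FPKM on chromosome 15, above the 10.0 to 16.1 FPKM of the others. The number of chromosome copies in these cells and the reads per chromosome are not known from the files, and their part was not tested. A region of any time was at the TSS of 77.5% of expressed genes on chromosome 19 and 39.4% on chromosome 14.

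**Figure D4:**
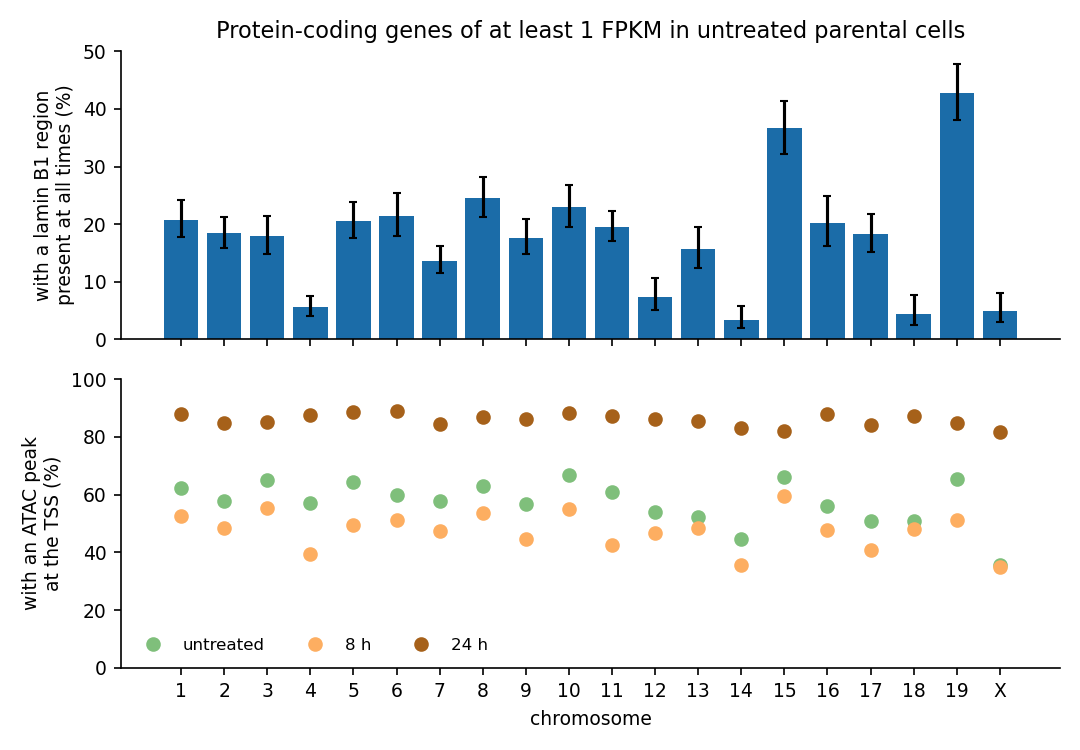
Protein-coding genes of at least 1 FPKM in untreated parental cells, by chromosome: share with a member at the TSS (top, %, with 95% Wilson intervals) and share with an ATAC peak at the TSS at each time (bottom, %). Chromosomes 19 and 15 reach 42.8 and 36.7% at the top, and chromosomes 4, 12, 14, 18 and X stay under 10%, while the 24 h ATAC shares all lie between 81.7 and 89.1%.

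Part of the members lay in groups. Of the 2431, 42.1% (40.1 to 44.1) were within 100 kb of another, with a median distance of 148 kb, and joining those at most 100 kb apart gave 1768 groups, of which 1408 were single regions. The largest group, chr19:5271956-5804605, had 29 members in 533 kb and included the promoters of Banf1, Fosl1, Cfl1, Kat5, Rela, Map3k11 and Ltbp3. A second group on chromosome 19 (chr19:6903098-7344609) had 20 members, with Bad, Prdx5, Stip1 and Otub1. On chromosome 15, chr15:75715350-76063734 had 15 members, with Scrib, Puf60 and Plec, and chr15:76173402-76702333 had 15, with Hsf1, Cyc1, Dgat1 and Cpsf1. A further group, chr15:79177525-79846033, had 14 with Maff, Sun2 and Pdgfb. Gene density differs along the chromosomes, and its part was not tested.

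Genes with a member at the TSS were expressed genes for the most part. Of 21994 genes of the RNA tables placed on the genome, 2204 (10.0%, 9.63 to 10.4) had a member. In the parental table, where 2198 of them are listed, their median was 14.2 and 14.6 FPKM in the untreated libraries, 13.9 and 14.3 after 8 h and 14.7 and 14.5 after 24 h, a level course. Genes with no lamin B1 region had medians of 0.0349 to 0.0441 FPKM, genes with a region of 8 and 24 h 7.07 to 7.60 FPKM, and genes with a region of 0 and 8 h 12.9 to 14.8 FPKM, a range that overlaps that of the members. The share of genes with a member grew with their untreated level, from 1.34% under 0.1 FPKM and 6.04% between 0.1 and 1 FPKM to 14.3% between 1 and 10 FPKM and 20.8% between 10 and 100 FPKM. Above 100 FPKM it was 20.6% (18 to 23.5). The highest were Ppia, a prolyl isomerase, with 3905 and 3639 FPKM at 0 h, Fth1, the ferritin heavy chain, with 2769 and 2650, and Ptma, or prothymosin alpha, with 2412 and 2454.

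A silent minority stood apart. In all 6 parental libraries 86 genes with a member stayed under 0.1 FPKM. Among them was Cldn7, a claudin of tight junctions, whose promoter had scores of 82.9, 128 and 138 and no ATAC peak at any time, with 0.0379 FPKM as its highest parental value. Hoxc12, the one Hox gene with a member, was listed at 0 in all parental libraries and also lacked ATAC peaks. Members with an ATAC peak had higher median RNA at each time. At 24 h, 2037 genes with an ATAC peak at the TSS had a median of 15.6 FPKM and 161 without one had 0.240 FPKM, while at 0 h the medians were 16.8 and 8.68 FPKM and at 8 h 16.0 and 10.5 FPKM. The lists behind these groups held 33811 peaks at 24 h, 9782 at 0 h and 10340 at 8 h, so the times are not compared on equal terms.

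By function, the largest share of the lists counted was that of the nuclear lamina. Among genes of the nuclear lamina and inner nuclear membrane, 9 of 15 had a member, among them Lbr, the lamin B receptor, Tmpo, or LAP2, Banf1, the DNA-bridging partner of LEM proteins, and Sun1 and Sun2 of the LINC complex. Lmnb1, Lmna and Emd had none. AP-1 and immediate early genes had 10 of 21 (47.6%), with Junb, Jund, Fosl1, Fosl2, Myc and Ier2 but not Fos, Jun, Egr1 or Atf3. Chromatin remodelling subunits had 14 of 34 (41.2%), cohesin and CTCF genes 6 of 15, ubiquitin conjugating enzymes 11 of 37, heat shock genes 7 of 26, TGF-β pathway genes 7 of 30, chromatin modifying enzymes 12 of 54, among them Hdac2, Ehmt2, Kat5 and Kdm2a, and splicing factors 13 of 61. Over all placed genes of at least 1 FPKM the share was 18.2%.

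Smaller shares were counted in several housekeeping complexes. Cytosolic ribosomal proteins had 9 of 83 (10.8%), mitochondrial ribosomal proteins 8 of 76 (10.5%), complex I of the respiratory chain 3 of 44 (6.82%), DNA replication 3 of 36 (8.33%), the proteasome 4 of 30, aminoacyl-tRNA synthetases 5 of 37 and the general transcription machinery 10 of 70. Zfp zinc finger genes had 26 of 351 (7.41%), or 25 of the 270 with at least 1 FPKM (9.26%). SLC transporters had 33 of 329, but 32 of the 142 with at least 1 FPKM (22.5%), which is above the share over all placed genes of that level. Of the EMT lists, 0 of 15 mesenchymal genes and 2 of 10 epithelial genes (Ocln and Cldn7) had a member, and Cdh1, the gene of E-cadherin, had none. Replication-dependent histones (0 of 68), keratins (0 of 47), olfactory receptors (0 of 1086) and a list of hematopoietic and neuronal genes (0 of 24) had none at their TSS. The intervals of the small lists are wide, for example 35.7 to 80.2% for the lamina list, and no test was made.

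TGF-β changed the RNA of many genes with a member, at about the rate of all genes. Of the 2198, 1972 passed the filter of at least 1 FPKM in at least 2 parental libraries and were tested with limma on log2(FPKM + 1), on which scale all changes below are given and which understates changes of low genes. At 8 h, 522 were called higher (26.5%; 22.4% of all 11309 genes tested) and 579 lower (29.4%; 32.1% of all) at an adjusted p under 0.05. At 24 h, 705 were higher (35.8%; 33.4% of all) and 704 lower (35.7%; 37.1% of all). The median log2 change of the tested members was -0.03 at 8 h, against -0.05 over all genes, and 0.00 at 24 h, against -0.02. A change of at least 2-fold was called in 68 members at 8 h (3.45%, against 4.30% of all genes tested) and in 179 at 24 h (9.08%, against 11.8%). Both times share the untreated libraries. The p-values rest on 2 libraries per group, which the methods call biological replicates.

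The leading rises at 8 h were Jag1, Itga5 and Btbd11. Jag1, a Notch ligand with a member of scores 232, 305 and 191, went from 13.3 and 14.8 to 69.3 and 54.5 FPKM, a log2 change of 2.06 ± 0.11 (SE, adjusted p = 3.5e-05). Itga5, the fibronectin receptor subunit, had 16.6 and 16.7 FPKM and rose to 79.1 and 61.7 FPKM (2.01 ± 0.10, adjusted p = 3.5e-05). Btbd11, a BTB domain protein, went from 0.946 and 0.995 to 6.42 and 4.71 FPKM (1.72 ± 0.12, adjusted p = 6.8e-05). In each case the lowest treated library lay above the highest untreated one, which was a condition for naming these genes.

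Beside Snora78, the largest falls at 8 h came from a shared promoter region on chromosome 12 without an ATAC peak at any time (chr12:111515933-111518387, scores 66.2, 89.2 and 151). Dio3os, a noncoding RNA, went from 12.7 and 10.9 to 0.238 and 0.460 FPKM, and its neighbour Dio3, the enzyme that inactivates thyroid hormone, had 8.06 and 7.98 against 0.0960 and 0.454 FPKM. Their log2 changes were -3.25 ± 0.11 (adjusted p = 1.4e-05) and -2.84 ± 0.13 (adjusted p = 2.9e-05), and at 24 h they were -3.50 ± 0.11 (adjusted p = 8.2e-07) and -3.09 ± 0.13 (adjusted p = 2.1e-06), with 0.0957 and 0.162 FPKM for Dio3os and 0.0307 and 0.0868 FPKM for Dio3. The lamin B1 score there was highest at 24 h, when both RNAs were lowest. Scores of different libraries are not on a common scale, and scores also rose at genes whose RNA rose, given below. Snora78, a small nucleolar RNA, was at 9.07 and 18 FPKM and then listed at 0 in both libraries of 8 h (adjusted p = 0.0047), and FPKM of such short genes is unreliable.

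At 24 h the leading rises were Wnt9a, a Wnt ligand, Plxna4, a semaphorin receptor, and Plod2, a lysyl hydroxylase of collagen crosslinking. Wnt9a went from 0.218 and 0.142 FPKM to 12.1 and 9.94 FPKM (3.34 ± 0.14, adjusted p = 2.1e-06), Plxna4 from 1.18 and 1.43 to 15.9 and 15.1 FPKM (2.84 ± 0.08, adjusted p = 6.2e-07) and Plod2 from 9.91 and 10.4 to 74.5 and 70.3 FPKM (2.72 ± 0.11, adjusted p = 1.8e-06). Their members had scores of 63.7, 152 and 186 (Wnt9a), 76.5, 95.5 and 139 (Plxna4) and 58.6, 115 and 90.7 (Plod2) at 0, 8 and 24 h. All 3 promoters had an ATAC peak at 24 h and none at 0 h, in lists of 33811 and 9782 peaks. The part of this unequal length was not tested. The leading fall beside Dio3os and Dio3 was Iqgap2, a scaffold of the actin cytoskeleton, from 71.8 and 76.1 FPKM to 5.53 and 5.59 FPKM (-3.51 ± 0.10, adjusted p = 6.7e-07), whose member kept scores of 81.3, 79.9 and 60.3. Treated and untreated libraries did not overlap for any of these genes, which was a condition for naming them.

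Lamina and TGF-β genes with a member moved in both directions. Lbr fell from 29.0 and 29.1 FPKM at 0 h to 15.2 and 16.5 at 8 h and 10.5 and 9.21 at 24 h (-1.47 ± 0.07 at 24 h, adjusted p = 3.0e-06). The score of its member was 79.1, 138 and 244 at these times, on a scale not common to the libraries. Tmpo fell from 122 and 121 FPKM to 64.2 and 62.5 at 24 h (-0.93 ± 0.04, adjusted p = 1.5e-06), and Sun2 rose from 14.2 and 13.3 to 26.7 and 24.8 FPKM (0.86 ± 0.05, adjusted p = 1.1e-05). Of the 9 lamina list members, Sun1 and Sun2 rose at 8 h, Sun2 and Tor1aip1 rose at 24 h, and Banf1, Lbr and Tmpo fell at both times. Of the 6 others of that list, 2 rose and 1 fell at 8 h, and 1 rose and 3 fell at 24 h. Of 6 tested TGF-β pathway members, 4 rose and 2 fell at both times. Of the 22 others of that list, 15 rose and 4 fell at 8 h, and 15 rose and 1 fell at 24 h. Their median log2 changes were 0.39 and 0.52, against 0.43 and 0.44 for the members. Over all genes tested, 22.4% rose and 32.1% fell at 8 h, and 33.4% rose and 37.1% fell at 24 h. Pmepa1, a feedback inhibitor of Smad signalling, rose from 39.0 and 38.6 FPKM to 127 and 123 at 24 h (1.66 ± 0.05, adjusted p = 6.2e-07), and Id1, an inhibitor of helix-loop-helix factors, fell from 257 and 220 to 39.3 and 40.7 FPKM (-2.54 ± 0.07, adjusted p = 6.2e-07). Among AP-1 members, Junb rose from 102 and 96.7 to 282 and 253 FPKM at 8 h (1.42 ± 0.06, adjusted p = 2.4e-05), Fosl2 rose from 8.72 and 9.02 to 37.0 and 34.5 FPKM at 24 h (1.90 ± 0.09, adjusted p = 3.7e-06), and Fosl1 fell from 8.94 and 9.03 to 3.17 and 3.77 FPKM at 24 h (-1.16 ± 0.11, adjusted p = 8.9e-05).

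Splicing factors with a member, the SR proteins and hnRNP proteins that select splice sites, fell at 24 h in 10 of 13 cases and rose in 1, against 31 falls and 0 rises among the 47 others of the list, and their median log2 change was -0.25 against -0.17. With quantile normalization the counts were 6 and 1 against 23 and 5. Srsf2 went from 172 and 170 to 128 and 122 FPKM (-0.45 ± 0.04, adjusted p = 4.7e-05). Aminoacyl-tRNA synthetases fell in 5 of 5 (others 17 of 32) and mitochondrial ribosomal proteins in 7 of 8 (others 51 of 68), where 37.1% of all genes tested fell. Chromatin remodelling subunits rose in 6 of 14 and fell in 4, and of the 20 others 7 rose and 4 fell. SLC transporters rose in 8 of 32 and fell in 16, and of the 116 others 36 rose and 46 fell. Zfp genes rose in 11 of 25 and fell in 4, and of the 252 others 119 rose and 29 fell. The members and the others of a list were not tested against each other.

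Genes were also split by the course of the lamin B1 score. Over all genes tested at 24 h, 33.4% were called higher and 37.1% lower. At 24 h, 36.5% of 613 tested genes whose member rose in score at each step were called higher and 36.2% lower. Of those whose member fell at each step, 37 (36.6%) were higher and 38 (37.6%) lower. Genes whose member had a lowest score of 93.5 to 2215 were higher in 38.4% and lower in 35.1%, and those at 50 to 59.1 in 36.6 and 32.1%. The split by ATAC peaks had a wider range at 24 h. Of 310 tested genes whose member was open only at 24 h, 41.3% were higher at 24 h and 30.0% lower, against 33.0 and 37.4% of 1109 genes whose member was open at all times. The ATAC lists held 9782, 10340 and 33811 peaks at 0, 8 and 24 h. The part of this unequal length in the ATAC classes was not tested. Of 56 tested genes whose member was never open, 51.8% were higher and 37.5% lower at a median of 4.23 FPKM, out of 146 such genes. These shares describe single ChIP and ATAC libraries and were not tested against each other.

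KD of lamin B1 changed genes with a member at rates within a few percentage points of those of all genes. Of 2158 such genes listed for the shRNA libraries, 1946 were tested against 11450 in all. At 0 h, 190 were higher in KD cells (9.76%; 10.6% of all) and 234 lower (12%; 9.09% of all). At 8 h, 373 were higher (19.2%; 19.3% of all) and 365 lower (18.8%; 16.5% of all). At 24 h, 256 were higher (13.2%; 16.8% of all) and 260 lower (13.4%; 11.5% of all). Median log2 differences, KD minus control, were -0.02, -0.00 and -0.01 for the members and -0.01, 0.01 and 0.02 for all genes. A 2-fold difference was called in 2, 10 and 4 members, or 0.103, 0.514 and 0.206%, against 0.585, 0.803 and 0.533% of all genes tested.

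These counts depended on single libraries and on the scale. Without KD replicate 1 of 0 h the counts at 0 h were 52 higher and 52 lower, and without KD replicate 2 they were 58 and 48. At 8 h, leaving out any 1 of the 4 libraries gave 206 to 226 higher and 188 to 205 lower. At 24 h the counts were 107 and 75 without control replicate 1, 128 and 92 without control replicate 2, and 308 and 439 without KD replicate 1. Quantile normalization gave 206 higher and 345 lower at 24 h, and a fit of the compared groups alone gave 92 and 87 at 0 h and 82 and 60 at 24 h. Among genes of at least 10 FPKM, 13.9% of members and 19.2% of all genes were higher at 24 h, and 14.2 and 12.1% were lower.

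**Figure D5:**
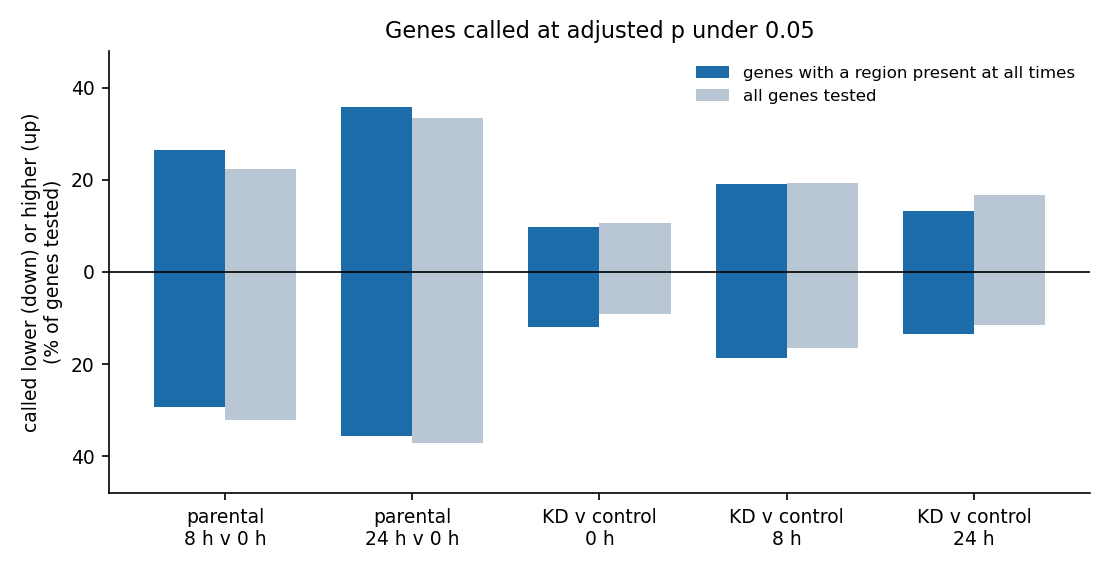
Share (%) of tested genes called higher (upward bars) and lower (downward bars) at a limma adjusted p under 0.05, for genes with a member at the TSS and for all genes tested, in parental cells against 0 h and in KD against control cells. At 24 h of TGF-β, 13.2% of genes with a member and 16.8% of all genes were higher in KD cells, the widest gap among the KD bars.

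Tax1bp3, Mesdc1 and Plekha3 were the 3 largest falls in KD cells at each time. Tax1bp3, a PDZ domain protein, had 39.0 and 40.4 FPKM in KD against 124 and 105 FPKM in control cells at 0 h, 42.9 and 41.8 against 117 and 119 at 8 h, and 50.3 and 70.3 against 144 and 143 at 24 h. Its log2 differences were -1.49 ± 0.13 (adjusted p = 0.00023), -1.46 ± 0.13 (adjusted p = 0.00015) and -1.26 ± 0.13 (adjusted p = 0.00050). Mesdc1, or talin rod domain containing protein, had 3.19 and 3.64 against 9.13 and 9.06 FPKM, 5.36 and 5.28 against 14.8 and 14.6, and 6.15 and 6.55 against 14.7 and 15.0 (-1.19, -1.31 and -1.11, each ± 0.06). Plekha3, a phosphoinositide-binding protein of the Golgi, had 8.81 and 8.76 against 17 and 18.1 FPKM at 0 h and differed by -0.92 ± 0.06, -1.02 ± 0.06 and -1.03 ± 0.06. No KD library reached the level of a control library of its time for these genes, which was a condition for naming them. Effects of the shRNA on transcripts other than Lmnb1 cannot be told apart from loss of lamin B1.

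Among rises, Herpud1, a protein of the endoplasmic reticulum stress response, had 112 and 109 FPKM in KD against 72.2 and 56.9 FPKM in control cells at 0 h, 76.4 and 76.8 against 33.6 and 32.7 at 8 h, and 61.7 and 59.8 against 29.6 and 27.7 at 24 h (0.78 ± 0.09, 1.18 ± 0.09 and 1.06 ± 0.09, adjusted p = 0.00095, 7.6e-05 and 0.00019). Galnt3, which starts O-linked glycans, had 26.7 and 27.1 against 12.2 and 11.4 FPKM at 8 h and 18.7 and 17.6 against 8.91 and 9.15 at 24 h (1.13 ± 0.07 and 0.93 ± 0.07). Fzd5, a Wnt receptor, had 12.3 and 12.6 against 6.42 and 6.94 FPKM at 0 h (0.81 ± 0.06, adjusted p = 5.5e-05). Wnt9a had 11.8 and 11.1 against 4.76 and 5.08 FPKM at 8 h (1.07 ± 0.07, adjusted p = 3.1e-05). Atoh8, a helix-loop-helix factor, had 10.1 and 9.07 against 6.44 and 3.8 FPKM at 0 h (0.82 ± 0.20, adjusted p = 0.023), a call that was lost in 3 of the 4 fits that left out 1 library. Mgat3, a glycosyltransferase, had 6.80 and 9.37 against 3.93 and 4.19 FPKM at 24 h (0.83 ± 0.11, adjusted p = 0.0014) and was not called in a fit of the compared groups alone.

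Splicing factors with a member were lower in KD cells in 10 of 13 cases at 0 h, 9 at 8 h (1 higher) and 8 at 24 h, and the others of the list in 10, 25 and 17 of 47. Their median log2 differences were -0.21, -0.27 and -0.17. Over the alternatives the number lower ran from 0 to 10 at 0 h, from 5 to 9 at 8 h and from 1 to 12 at 24 h. Srsf1 had 70.3 and 67.6 FPKM in KD against 79.2 and 91.1 in control cells at 0 h, 59.4 and 61.1 against 72.6 and 76.6 at 8 h, and 50.6 and 44.4 against 61.4 and 62.5 at 24 h (-0.30 ± 0.08, -0.30 ± 0.08 and -0.38 ± 0.08). Chromatin remodelling subunits with a member were lower in 5, 8 and 4 of 14 and higher in 0, with a range of 0 to 5 at 0 h over the alternatives, and the others of the list were lower in 2, 6 and 6 of 20 and higher in 0. Their median log2 differences were -0.12, -0.16 and -0.07, and those of the others -0.13, -0.19 and -0.09, where 9.09, 16.5 and 11.5% of all genes tested were lower. Arid1a, the DNA-binding subunit of the BAF complex, had 11.8 and 11.4 FPKM in KD against 16.7 and 16.0 in control cells at 0 h, 13.1 and 11.3 against 19.6 and 18.3 at 8 h, and 10.7 and 12.6 against 14.3 and 15.7 at 24 h (-0.46 ± 0.09, -0.60 ± 0.09 and -0.34 ± 0.09, adjusted p = 0.0095, 0.0015 and 0.024). Of the 9 lamina list members, 2, 3 and 1 were lower in KD cells and 0, 1 and 1 higher at 0, 8 and 24 h. Their median log2 differences were -0.03, 0.01 and 0.02. Of the 6 others of the list, 3, 3 and 2 were lower and 0 higher, with median log2 differences of -0.18, -0.15 and -0.11. Lmnb1, the target of the KD, has no member. Tmpo was lower at all times, with 54.6 and 55.7 against 73.4 and 75.7 FPKM at 8 h (-0.43 ± 0.06, adjusted p = 0.0014). Sun2 was the one called higher, at 8 and 24 h.

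Few members differed in their KD effect between times. The difference of the KD effect at 8 h from that at 0 h was positive in 47 members (2.42%; 2.45% of all) and negative in 19 (0.976%; 1.61% of all). At 24 h against 0 h it was positive in 35 (1.80%; 2.73% of all) and negative in 23 (1.18%; 1.98% of all). Both differences use the libraries of 0 h. With quantile normalization the counts were 36 and 30 at 8 h and 27 and 34 at 24 h. Single libraries decided these counts. At 8 h they were 150 and 85 without control replicate 2 of 0 h, and between 1 and 4 positive and 1 and 3 negative without either KD library of 0 h or any library of 8 h. At 24 h they were 126 and 72 without control replicate 2 of 0 h, 5 and 1 without KD replicate 1 of 0 h, 6 and 1 without KD replicate 2 of 0 h, 5 and 1 without control replicate 1 of 24 h, 8 and 2 without control replicate 2 of 24 h, 178 and 255 without KD replicate 1 of 24 h and 56 and 36 without KD replicate 2 of 24 h.

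Ccne1, cyclin E1 of S phase entry, was the clearest case, with 18.2 and 18.1 FPKM in KD against 11.6 and 13.3 in control cells at 0 h, and then 3.46 and 3.8 against 5.85 and 6.46 at 8 h and 5.14 and 5.42 against 7.42 and 7.03 at 24 h. KD cells were above control cells before TGF-β and below them after it, and the difference of effects was -1.14 ± 0.11 at 8 h and -0.90 ± 0.11 at 24 h (adjusted p = 0.0027 and 0.0045), called in every fit with a library left out. Car2, a carbonic anhydrase, had 15.7 and 15.6 against 16.3 and 17.8 FPKM at 0 h and 4.38 and 4.33 against 2.20 and 2.19 at 24 h (0.86 ± 0.11, adjusted p = 0.0067). Afap1l2, an adaptor of Src signalling, had 7.22 and 6.75 against 7.67 and 7.12 at 0 h and 9.45 and 8.57 against 5.09 and 4.89 at 24 h (0.81 ± 0.10, adjusted p = 0.0046). Fbxo5, or Emi1, an inhibitor of the anaphase-promoting complex, and Pola2, a subunit of DNA polymerase alpha, had negative differences at 8 h (-0.72 ± 0.14 and -0.67 ± 0.11) that were lost without either KD library of 0 h or any library of 8 h.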

How the data were processed

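The authors deposited lamin B1 ChIP and ATAC peak lists with a MACS score per peak, called on 1 library per time. They also deposited FPKM per gene from Cufflinks after TopHat alignment, in a table of 6 parental and a table of 12 shRNA libraries. Bowtie, TopHat, Cufflinks and mm9 come from the submitters' processing notes, without versions. The treatment of reads that map to several places is not given in the sources used here. The score has no stated unit, and read depth behind the peaks is unknown. In the FPKM tables the smallest steps put library depth at 92.8 to 116% (parental) and 79.0 to 112% (shRNA) of the first library of each table. The tables have no header, columns were matched through the labels, the parental columns carry no replicate number and 0 columns were given no sample.

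Regions were merged and annotated with GENCODE M1 on mm9. A gene had a member if one lay within 500 bp of its TSS. Of the gene symbols, 21213 matched directly, 781 matched by an older symbol, 227 were ambiguous and 2671 had no match. Intervals are 95% Wilson intervals. Genes of at least 1 FPKM in at least 2 libraries were tested on log2(FPKM + 1) with limma 3.58.1 (lmFit, contrasts.fit and eBayes with trend, R 4.3.3), all groups of a table in 1 fit, Benjamini-Hochberg adjusted over all genes tested, two-sided, at 0.05. Other steps used Python 3.11.15, numpy 2.4.6, pandas 2.3.3, scipy 1.17.1, pysam 0.24.0 and matplotlib 3.10.9. The scripts were tested on simulated data. Where replicates share a number, correlations of their deviations ran from -0.135 to 0.368, with 2 of 15 over 0.1. Whether the numbers pair the libraries is not settled by these values. No block entered the main test, and a fit with a replicate block was run as an alternative.

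Named were the 10 regions with the highest lowest score (1 of them is not reported here), the 5 widest, 3 just inside and 3 just outside the rule, Lmnb1, Lmna, Lmnb2 and Emd, list members by counts with examples of high untreated FPKM, and for each contrast the 3 largest rises and 3 largest falls among called genes with a group mean of at least 5 FPKM whose libraries did not overlap. Other genes named in lists were chosen after their values were seen. The members and gene lists were chosen with earlier results of these data known. Alternatives were a constant of 0.1 FPKM, no filter, quantile normalization, a fit of the compared groups, a 2-fold change, a TSS window of 2500 bp, each library left out, a replicate block, peaks at or above the list median, lists of equal length, a common base, merging within 500 bp and the central 500 bp of regions. Hi-C was not analysed here.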

Additional observations from a re-analysis of the deposited data

Results flagged for a closer look

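The results below stand out because the KD effect at 8 or 24 h of TGF-β differed from that at 0 h, by an interaction contrast in limma with an adjusted p under 0.05. At 8 h the difference was positive in 47 genes with a member and negative in 19, and at 24 h in 35 and 23. At 8 h it was 1.06 ± 0.22 for Fbxo36 (adjusted p = 0.037), 0.88 ± 0.13 for Gxylt2 (adjusted p = 0.016) and 0.80 ± 0.12 for 1190002N15Rik (adjusted p = 0.017), and -1.14 for Ccne1, -0.72 for Fbxo5 and -0.67 for Pola2. At 24 h it was 0.86 for Car2, 0.81 for Afap1l2 and 0.70 ± 0.14 for H1f0, a pseudogene in the annotation used (adjusted p = 0.033), and -0.90 for Ccne1, -0.78 ± 0.14 for Fbxo5 (adjusted p = 0.022) and -0.71 ± 0.12 for Dusp5 (adjusted p = 0.022). The calls of Fbxo36, Gxylt2, 1190002N15Rik, Fbxo5 and Pola2 at 8 h were each lost in 6 of the 8 fits that left out 1 library of the contrast, that of H1f0 in 5, and those of Fbxo5 and Dusp5 at 24 h in 4, with adjusted p of up to 0.15. Ccne1 at both times, Car2 and Afap1l2 were called in each of these fits. Each value is on the log2(FPKM + 1) scale and rests on 2 libraries per group, and both times share the libraries of 0 h.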

How the results depend on the processing

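With peaks at or above the median score of their list, 1099 regions were present at all times, holding 47.9, 21.5 and 31.5% of the peaks at 0, 8 and 24 h, with 85.7% near a TSS, ATAC peaks in 69.9, 57.5 and 88.4% and median levels of 15.0, 14.9 and 15.4 FPKM. Lists of equal length gave 37.1, 37.1 and 37.2% of peaks, 84.4% near a TSS, ATAC peaks in 67.2, 54.8 and 87.5%, and 14.7 and 14.5 FPKM at 0 and 8 h. Merging within 500 bp gave 55.0 and 25.4% of peaks at 0 and 8 h. A TSS window of 2500 bp gave 86.9% and 13.8, 13.6 and 14.2 FPKM, ATAC lists of equal length 56.2% at 24 h, and the central 500 bp, chosen after seeing the data, 75.5% near a TSS and ATAC peaks in 60.1 and 47.6% at 0 and 8 h. At least 2-fold, higher and lower calls were 37 and 31 (TGF-β 8 h), 92 and 87 (24 h), 0 and 2 (KD 0 h), 7 and 3 (KD 8 h), 1 and 3 (KD 24 h), 1 and 1 (difference at 8 h) and 0 and 0 (difference at 24 h, where limma gave 408 members an unadjusted p under 0.05). In the same order, 3.45, 9.08, 0.103, 0.514, 0.206, 0.103 and 0% of tested members had such calls. Over all genes tested the shares were 4.30, 11.8, 0.585, 0.803, 0.533, 0.262 and 0.463%. A fit of the compared groups gave 92 and 87 (KD 0 h), 82 and 60 (KD 24 h), 80 and 36 (difference at 8 h) and 6 and 1 (difference at 24 h). No filter gave 29 and 22 positive differences at 8 and 24 h, and quantile normalization 30 negative ones at 8 h. The cause was not tested.

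The replicate block gave 184 and 215, 364 and 357, and 249 and 245 calls for KD at 0, 8 and 24 h. With it, 29 and 22 differences were positive and 14 and 17 negative at 8 and 24 h. In this check 2 of 15 correlations were over 0.1. The parental columns carry no replicate number. Leaving out 1 library at a time gave median levels of 14.2 to 14.6, 13.9 to 14.3 and 14.5 to 14.7 FPKM, and higher and lower calls of 409 to 480 and 443 to 571 (TGF-β 8 h), 566 to 661 and 582 to 633 (24 h), 52 to 213 and 48 to 225 (KD 0 h), 206 to 226 and 188 to 205 (KD 8 h), 107 to 308 and 75 to 439 (KD 24 h), 1 to 150 and 1 to 85 (difference at 8 h) and 5 to 178 and 1 to 255 (difference at 24 h). Of 42 named gene values, 32 kept their call under every alternative run, and none reversed its sign. The counts, shares and levels were labelled only as kept or moved. Of their alternative values, 125 kept within the set limits and 102 moved beyond them.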
